A study of Mus musculus with 18 samples.

Results

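Imprinted genes are expressed from one parental copy, and the genes described here are Cdkn1c and other imprinted genes known for acting on growth. The members asked for were Cdkn1c, H19, Dlk1, Peg3, Mest, Plagl1, Grb10 and Ndn, and a probe set counted as a member where the array's annotation gave it 1 of these symbols and no other. The rule gave 13 probe sets for 7 of the 8 genes, out of 12488 probe sets and 8251 genes with a single symbol. They were 3 probe sets each for Peg3 and Grb10, 2 each for Plagl1 and Ndn, and 1 each for Cdkn1c, Dlk1 and Mest. The 1 probe set that names H19 also carries the symbol of the microRNA gene inside it, Mir675, so H19 was not analysed here. All 13 probe sets were tested, with no filter on low values, and 11 of them had a mean signal at or above the 40th percentile of the array.

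Kidney RNA of C57 mice was measured on Affymetrix arrays, 1 array per mouse. The groups were Aprt KO mice of 1 month (n = 3), their control littermates of 1 month (n = 3), Aprt KO mice of 7 days (n = 6) and their control littermates of 7 days (n = 6). The Aprt protein recycles adenine into nucleotides, and mice lacking it form kidney stones of an adenine oxidation product. The mice form 9 litter pairs matched for sex, each with both genotypes, and pairs are numbered here within each age. The series text gives the genotypes as Aprt-/- and Aprt+/+, and calls the ages newly born and adult. How the Aprt allele was made is not given in the sources used here.

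Cdkn1c encodes p57, a Cip/Kip inhibitor that stops cyclin-dependent kinases, and is known in kidney for its expression in podocytes. It is expressed from the maternal copy, as is Grb10, an adaptor that dampens insulin and insulin-like growth factor receptor signalling, in most tissues. Dlk1, Peg3, Mest, Plagl1 and Ndn are expressed from the paternal copy. Dlk1 is a Notch-like membrane protein, Peg3 and Plagl1 are zinc finger proteins, Mest is a hydrolase-like protein of the mesoderm, and Ndn (necdin) is a MAGE family protein that restrains proliferation.

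The array values are MAS5 signals, an intensity on a linear scale in which 1 array's values share a common scaling. They are not compared between probe sets. Fold changes are on the scale of log2(signal + 29), which understates changes of dim probe sets, and come from a limma model of all 18 arrays fitted to 12422 probe sets. A probe set is called where its Benjamini-Hochberg adjusted p over these 12422 was under 0.05. The first principal component held 42.7% of the variance. All 8 markers of kidney epithelium lay at or above the 40th percentile. Aprt itself was dim: its brightest of 3 probe sets lay at the 35 percentile and differed by -0.58 at 7 days (SE 0.23, limma adjusted p = 0.425) and by -0.54 at 1 month (SE 0.33, limma adjusted p = 1). Against the midpoint between the group medians of each age, 4 arrays read on the other genotype's side. They were the 1-month mouse labelled Aprt KO of pair 1, the 7-day mouse labelled Aprt KO of pair 4 and the 7-day mice labelled control of pairs 1 and 2. Genotypes are therefore those of the labels throughout.

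Promoters are shown for Peg3, Mest, Ndn and Grb10, which had large falls between 7 days and 1 month in controls. That of Dlk1, whose fall was small, is shown beside them. The part of the promoters in these falls was not tested. RefSeq's table for GRCm38.p6 held promoters for 6 of the 8 genes asked for and none for Cdkn1c or H19. Each run covers 250 bases before and 50 bases after an annotated start, 5′ to 3′ on the gene's strand. Capitals mark any match, on both strands, to GGGCGG (the GC box), GCATGCGC (the core of the NRF1 motif), GGGGCCCC (a sequence that Plagl1 binds) or GCCATNTT (the YY1 motif).
Peg3, chr7:6730370-6730669, minus strand: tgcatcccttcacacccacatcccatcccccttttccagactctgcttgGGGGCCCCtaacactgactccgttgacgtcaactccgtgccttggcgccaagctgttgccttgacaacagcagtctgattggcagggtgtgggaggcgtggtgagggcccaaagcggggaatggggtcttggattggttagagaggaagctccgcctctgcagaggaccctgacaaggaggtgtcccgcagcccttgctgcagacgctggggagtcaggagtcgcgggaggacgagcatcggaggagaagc
Mest, chr6:30737800-30738099, plus strand: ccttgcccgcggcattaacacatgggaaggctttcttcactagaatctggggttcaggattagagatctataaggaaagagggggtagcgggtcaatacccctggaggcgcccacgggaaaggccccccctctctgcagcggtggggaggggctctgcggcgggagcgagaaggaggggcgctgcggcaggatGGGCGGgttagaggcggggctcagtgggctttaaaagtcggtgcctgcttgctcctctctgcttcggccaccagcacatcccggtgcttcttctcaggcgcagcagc
Ndn, chr7:62348027-62348326, plus strand: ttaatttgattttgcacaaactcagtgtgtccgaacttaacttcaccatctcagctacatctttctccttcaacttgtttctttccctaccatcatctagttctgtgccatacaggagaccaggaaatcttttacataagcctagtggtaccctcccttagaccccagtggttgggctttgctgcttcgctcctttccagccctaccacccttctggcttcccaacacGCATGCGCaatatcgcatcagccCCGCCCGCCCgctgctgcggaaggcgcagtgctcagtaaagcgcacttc
Grb10, chr11:12037371-12037670, minus strand: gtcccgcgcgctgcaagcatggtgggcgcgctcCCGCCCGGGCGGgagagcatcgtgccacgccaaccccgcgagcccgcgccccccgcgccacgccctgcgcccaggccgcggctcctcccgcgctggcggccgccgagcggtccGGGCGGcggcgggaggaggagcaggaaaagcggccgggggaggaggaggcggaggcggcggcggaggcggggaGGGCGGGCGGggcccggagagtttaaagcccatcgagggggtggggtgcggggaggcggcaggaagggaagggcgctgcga
Grb10, chr11:12027922-12028221, minus strand: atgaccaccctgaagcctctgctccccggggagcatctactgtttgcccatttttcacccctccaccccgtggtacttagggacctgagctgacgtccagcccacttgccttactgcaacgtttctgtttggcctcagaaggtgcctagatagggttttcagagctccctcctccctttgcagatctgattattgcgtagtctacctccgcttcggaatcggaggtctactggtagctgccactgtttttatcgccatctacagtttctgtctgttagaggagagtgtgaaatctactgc
Dlk1, chr12:109452573-109452872, plus strand: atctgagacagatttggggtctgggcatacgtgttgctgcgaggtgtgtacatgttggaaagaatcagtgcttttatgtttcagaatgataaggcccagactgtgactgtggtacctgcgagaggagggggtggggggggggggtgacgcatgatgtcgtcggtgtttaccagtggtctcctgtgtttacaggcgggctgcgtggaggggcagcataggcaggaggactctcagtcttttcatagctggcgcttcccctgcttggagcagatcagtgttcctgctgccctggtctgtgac
The Peg3 run holds 1 match to GGGGCCCC, which 1.08% of 32851 RefSeq promoters of this length hold. The Ndn run holds 1 match to GCATGCGC, found in 2.71% of all promoters, and 2 overlapping matches to GGGCGG, found in 35.7%. The Mest run holds 1 match to GGGCGG, the first Grb10 run holds 5, some of them overlapping, and the second Grb10 run and the Dlk1 run hold none of the 4 motifs. GCCATNTT, found in 6.05% of all promoters, matched in none of the 6 runs, and matches to different motifs did not overlap. The number of CpG dinucleotides was 13 for Peg3, 17 for Mest, 11 for Ndn, 45 and 9 for the Grb10 runs and 9 for Dlk1, against a median of 7 over all promoters. Another annotated Mest start has 8 CpG dinucleotides and 1 match to GGGCGG, and the Plagl1 promoter has 26 and 2.

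**Figure D1:**
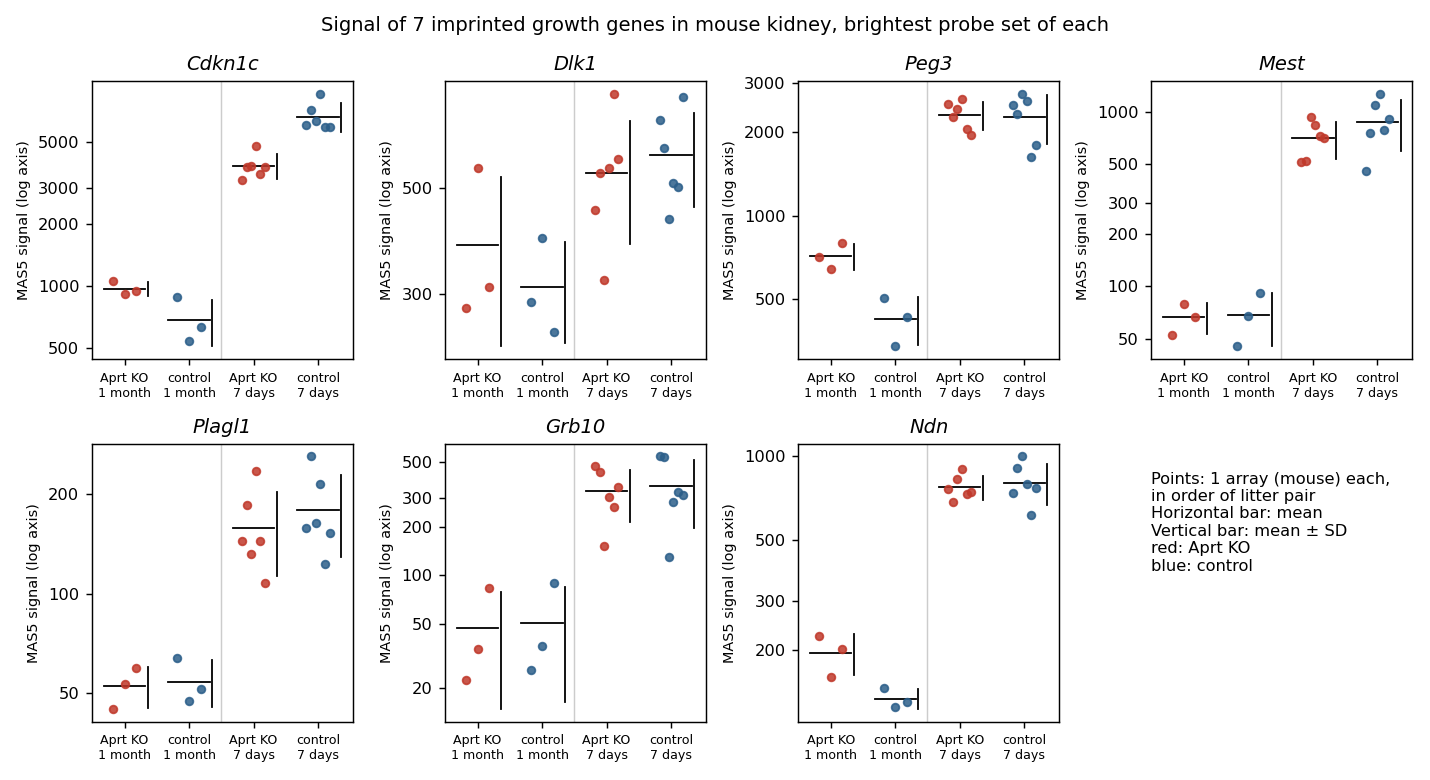
MAS5 signal (log axis) of the brightest probe set of each of 7 imprinted genes, by group. Each point is 1 array, the horizontal bar is the mean and the vertical bar the mean ± SD (n = 3 per 1-month group and 6 per 7-day group). All 7 genes were lower in 1-month than in 7-day controls, and at 7 days the Aprt KO arrays lay below every control array for Cdkn1c only among these 7.

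The first question is how the genotypes differ in these genes at 7 days. Cdkn1c fell in Aprt KO kidneys and was the only member called. Its probe set read from 3274 to 4802 in the 7-day Aprt KO mice (median 3786) and from 5891 to 8585 in the 7-day controls (median 6172). The highest Aprt KO array thus lay below the lowest control array, a separation that 1.86% of all probe sets showed in this comparison. The means were 3829 ± 524 in Aprt KO mice and 6649 ± 1053 in controls (SD, n = 6 each). The log2 fold change was -0.79 (SE 0.11, limma adjusted p = 0.000455), and the Aprt KO mouse was lower than its littermate in 6 of 6 pairs.

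Over the array 1.78% of probe sets were called in this comparison, 1.51% higher and 0.266% lower, against 1 lower and 0 higher of the 13 member probe sets. With the litter pair as a fixed block 2.66% were called higher and 1.55% lower, and Cdkn1c was again the only member called. Without the 4 arrays of doubtful Aprt signal the log2 fold change of Cdkn1c was -0.85 (SE 0.12, limma adjusted p = 0.00325). In pair 4 both littermates had the highest Cdkn1c of their group, 4802 in the mouse labelled Aprt KO and 8585 in the control.

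**Figure D2:**
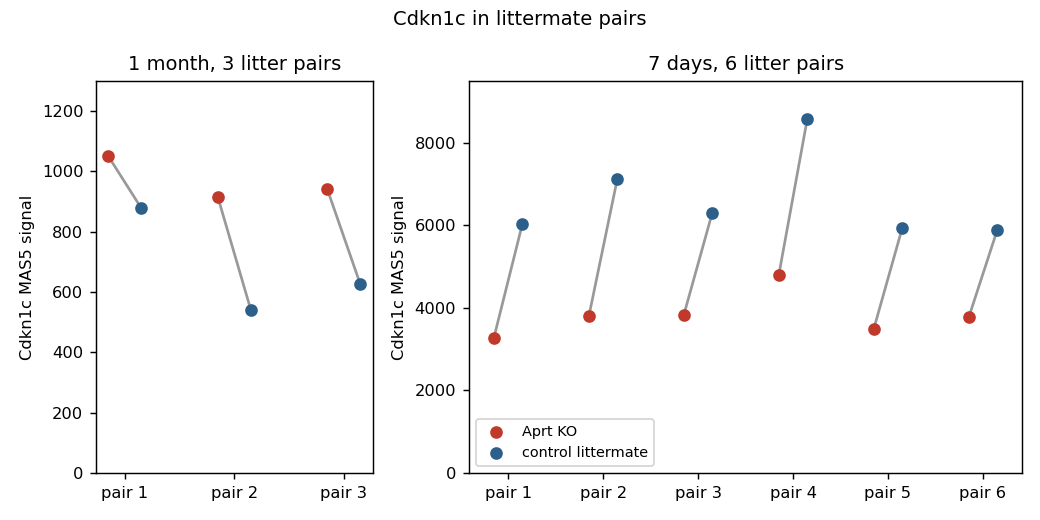
Cdkn1c MAS5 signal in each litter pair at 1 month (left panel) and 7 days (right panel, on another vertical scale), with the Aprt KO mouse left of its control littermate and a line joining the 2. Aprt KO mice were higher in 3 of 3 pairs at 1 month and lower in 6 of 6 pairs at 7 days.

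The other 6 genes did not pass at 7 days. Mest read from 512.9 to 930.8 in Aprt KO mice (median 717.7) and from 456.9 to 1271 in controls (median 845.2). The ranges overlapped, and the log2 fold change was -0.27 (SE 0.21, limma adjusted p = 0.949), with the Aprt KO mouse higher in 1 of 6 pairs. Peg3, at its brightest probe set, averaged 2302 ± 268 in Aprt KO mice and 2262 ± 451 in controls (SD, n = 6 each), a log2 fold change of 0.04 (SE 0.13). Ndn averaged 773 ± 77.5 in Aprt KO mice and 801.3 ± 135 in controls (-0.04, SE 0.11). For Peg3 and Ndn the difference was smaller than its SE, with the groups overlapping.

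Dlk1 read from 321 to 784.7 in Aprt KO mice (median 541.9) and from 429.8 to 771.8 in controls (median 557.7). Plagl1 read from 107.4 to 233.9 in Aprt KO mice (median 144) and from 123 to 259.7 in controls (median 160.5). Grb10 read from 151.9 to 477.9 in Aprt KO mice (median 327.8) and from 129.8 to 545 in controls (median 321.7). For Grb10 the lowest array of each genotype was that of pair 3 and the highest that of pair 1, so littermates lay near each other. Dlk1 read -0.14 (SE 0.19), Plagl1 -0.15 (SE 0.19) and Grb10 -0.06 (SE 0.30) in log2 fold change.

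No other probe set of these genes was called. The second Peg3 probe set averaged 752.6 ± 243 in Aprt KO mice and 688.8 ± 220 in controls, and the second Ndn probe set 585.7 ± 75.3 in Aprt KO mice and 599 ± 108 in controls (SD, n = 6 each). The second Grb10 probe set averaged 287.4 ± 60.1 in Aprt KO mice and 263.2 ± 68.3 in controls, and the second Plagl1 probe set 102.5 ± 44.5 in Aprt KO mice and 122 ± 43.1 in controls (SD, n = 6 each). The log2 fold changes of these 4 lay between -0.21 for Plagl1 and 0.13 for Grb10, and that of the dimmest Grb10 probe set was 0.41 (SE 0.21). All 12 probe sets other than that of Cdkn1c overlapped between the genotypes at 7 days, and their limma adjusted p ranged from 0.688 to 0.999. Without the 4 arrays of doubtful Aprt signal the brightest probe sets of these 6 genes read between -0.57 for Mest (SE 0.20, limma adjusted p = 0.397) and 0.35 for Grb10 (SE 0.32, limma adjusted p = 0.926), and none was called. The Grb10 value then has the other sign. The median over the 13 probe sets was -0.04, against -0.01 over all probe sets.

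Among the other Cip/Kip and INK4 inhibitors and their cyclin and kinase partners, 17 of 18 listed genes were measured. Of these 0 were higher, 1 was lower and 16 were not called at 7 days by limma. At an unadjusted p under 0.05 there were 4 of the 17, against 8.03% of all probe sets, and the median log2 fold change was -0.15. Their summed signal ranged from 10855 to 12494 in Aprt KO mice and from 12463 to 13709 in controls, with a narrow overlap. The gene called lower was Ccnd1, cyclin D1, which drives entry into the cell cycle, at -0.36 (SE 0.09, limma adjusted p = 0.0446). The sister inhibitors Cdkn1a (p21) and Cdkn1b (p27) read -0.03 (SE 0.12) and 0.08 (SE 0.17). In the insulin-like growth factor axis 0 of 10 measured genes were called by limma, with 0 at an unadjusted p under 0.05. Of 33 other imprinted genes measured 0 were called by limma, with 3 at an unadjusted p under 0.05, which 8.03% of all probe sets reached. The median log2 fold change of these 33 was -0.07. Slc22a18 and Phlda2, maternally expressed neighbours of Cdkn1c in its imprinted cluster, read -0.51 (SE 0.16, limma adjusted p = 0.151) and -0.36 (SE 0.11, limma adjusted p = 0.183). Neither was called, and as genes named after their values were seen they do not stand for the whole cluster.

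In bulk kidney RNA, fewer cells of a type and less RNA per cell cannot be told apart. Beside the Cdkn1c fall, 0 of 9 measured podocyte markers were called by limma at 7 days (12 listed, 0 at an unadjusted p under 0.05, median log2 fold change -0.09). Among them Wt1, Synpo and Ptpro, named after their values were seen, read -0.01, 0.16 and -0.14. The summed signal of the 9 markers ranged from 5988 to 6933 in Aprt KO mice and from 6412 to 7623 in controls. Of stromal and fibroblast markers 0 of 9 measured were called by limma (2 at an unadjusted p under 0.05, median 0.20), with sums from 24325 to 30093 in Aprt KO mice and from 20983 to 28441 in controls. Kidney epithelium markers had 0 of 8 called by limma, 3 at an unadjusted p under 0.05 and a median of -0.29, with sums from 31428 to 46092 in Aprt KO mice and from 40867 to 58645 in controls. The 3 sums overlapped between the genotypes, and the part of these cells in the Cdkn1c fall was not tested. Of the other marker lists, 1 of 11 neuron and chromaffin markers was called higher, Uchl1 (0.46), and 1 of 3 blood markers lower, Slc4a1 (-0.79). The other 2 blood markers were not called, and the summed signal of the 3 overlapped widely. It ranged from 8728 to 33543 in Aprt KO mice and from 7922 to 35580 in controls.

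At 1 month the order of the genotypes was the other way round for Cdkn1c, and no member was called. Cdkn1c read 1050, 913.9 and 940.5 in the Aprt KO mice of pairs 1 to 3, against 878.2, 541.6 and 626.9 in their control littermates. The groups did not overlap, which 6.39% of all probe sets showed with 3 arrays a side. The log2 fold change was 0.51 (SE 0.16, limma adjusted p = 0.547), with Aprt KO mice higher in 3 of 3 pairs. Blocking on litter pair gave a limma adjusted p of 0.0275, and without the 4 arrays of doubtful Aprt signal the value was 0.64 (SE 0.18, limma adjusted p = 0.496).

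Peg3 and Ndn were also higher in each Aprt KO mouse than in any control of 1 month. The brightest Peg3 probe set read 706.9, 642.2 and 796.2 in Aprt KO mice and 506.3, 338.3 and 430.4 in controls. Its log2 fold change was 0.72 (SE 0.19, limma adjusted p = 0.283), and blocking on litter pair gave an adjusted p of 0.00805 in limma. Its second probe set read 0.58 (SE 0.31) without overlap, while the third, of a type that Affymetrix marks as shared within a gene family, read 0.06 (SE 0.18) with overlap. Ndn read 224.3, 159.9 and 201.6 in Aprt KO mice and 145.9, 124.9 and 129.2 in controls at its brightest probe set, a log2 fold change of 0.46 (SE 0.16, limma adjusted p = 0.753). At its other probe set the value was 0.38 (SE 0.20), and the groups overlapped. Without the 4 arrays of doubtful Aprt signal Peg3 read 0.86 (SE 0.25, limma adjusted p = 0.521) and Ndn 0.42 (SE 0.21, limma adjusted p = 0.999) at their brightest probe sets.

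None of the other members was called at 1 month. Dlk1 read 281, 548.8 and 310.6 in Aprt KO mice and 289.1, 393.2 and 250.6 in controls, with overlap, a log2 fold change of 0.23 (SE 0.28). Mest read 52.9, 79.7 and 66.9 in Aprt KO mice and 45.7, 67.9 and 91.9 in controls, and Plagl1 read 44.7, 53.4 and 59.7 in Aprt KO mice and 64, 47.3 and 51.3 in controls. Grb10 read 22.4, 34.9 and 83.1 in Aprt KO mice and 25.7, 36.2 and 89.7 in controls, so that littermates lay closer to each other than to mice of their own genotype in other litters. The log2 fold changes of Mest, Plagl1 and Grb10 were -0.01, -0.03 and -0.07 (SE 0.29, 0.27 and 0.42). The second Grb10 probe set read -0.21 (SE 0.27), lower in the Aprt KO mouse in 3 of 3 pairs as at the brightest, and the dimmest read -0.48 (SE 0.29). The second Plagl1 probe set read 0.21 (SE 0.30), higher in 3 of 3 pairs. In all of these the groups overlapped.

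By limma 0 of 13 member probe sets were called at 1 month, with 3 at an unadjusted p under 0.05, which 3.9% of all probe sets reached, and 2 called with the litter pair as a fixed block. Over the array 0.0644% were called, all 8 of them higher and 0% lower, and 58 were called with that block. Of the lists, 0 of 33 other imprinted genes, 0 of 17 cell cycle genes and 0 of 10 genes of the insulin-like growth factor axis were called by limma, with 2, 1 and 0 at an unadjusted p under 0.05. The summed signals of stromal and of podocyte markers were also higher in each Aprt KO mouse of 1 month than in any control. Stromal markers summed to between 8920 and 10277 in Aprt KO mice and between 4374 and 5417 in controls, and the collagens Col1a1 (1.47), Col1a2 (1.10) and Col3a1 (1.08) were called by limma among 9 measured. Podocyte markers summed to between 2364 and 2829 in Aprt KO mice and between 1688 and 2227 in controls. Of the 9 measured 8 were not called by limma, and the median was 0.24. The 1 called was Tcf21 (0.96, SE 0.17, limma adjusted p = 0.036), also the only 1 at an unadjusted p under 0.05. Its protein regulates transcription in stroma as well as in podocytes. Fat markers had sums of 3093 to 5856 in Aprt KO mice and 1572 to 3442 in controls, with 0 of 6 called by limma, 1 at an unadjusted p under 0.05 and a median of 0.76. Skeletal muscle markers had sums of 696 to 7789 in Aprt KO mice and 431 to 822 in controls, with 0 of 10 called by limma, 2 at an unadjusted p under 0.05 and a median of 0.54. The part of these cell types in the 1-month values of Cdkn1c, Peg3 and Ndn was not tested.

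**Figure D3:**
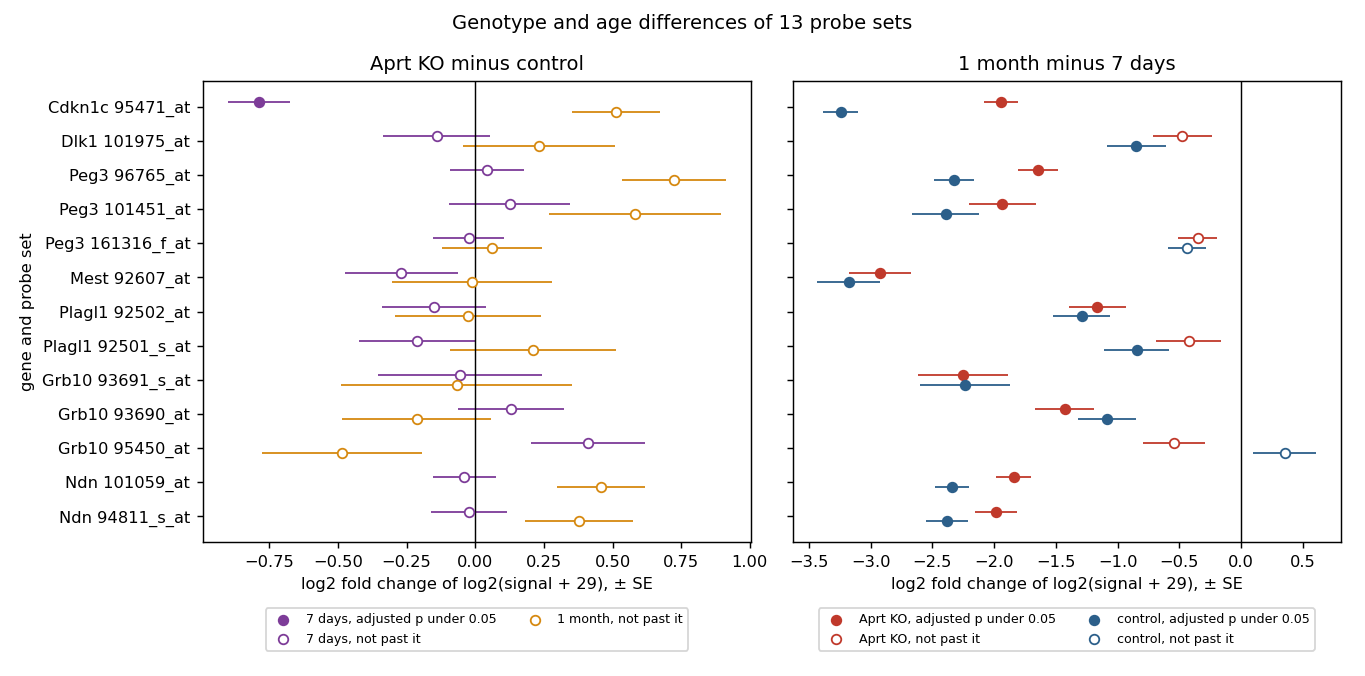
Log2 fold change ± SE of each of the 13 probe sets for Aprt KO minus control at 7 days and 1 month (left panel) and for 1 month minus 7 days in each genotype (right panel). Filled points had a limma adjusted p under 0.05. Cdkn1c was the only filled point of the left panel, at -0.79, and its age difference was -1.94 in Aprt KO mice and -3.25 in controls.

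Whether the genotype difference changed with age was tested as an interaction, the 1-month difference minus the 7-day difference. Cdkn1c was the only member called, at 1.30 (SE 0.20, limma adjusted p = 0.00551), and 9 was the rank of its p among the 12422 probe sets. Of all probe sets 0.274% were called, 0.0644% in the positive and 0.209% in the negative direction. The positive share of these calls was 23.5%, against 13.3% with quantile normalization, 11.5% with arrays scaled to a common median and 50.6% with the litter pair as a fixed block. The call did not hold with quantile normalization (1.32, SE 0.30, limma adjusted p = 0.104) or without the 1-month pair 2 (1.20, 0.0618) or the 1-month pair 3 (1.28, 0.0628). Without the 4 arrays of doubtful Aprt signal it read 1.50 (SE 0.22, limma adjusted p = 0.034).

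Peg3 read 0.68 (SE 0.23, limma adjusted p = 0.587; 0.0291 with litter pair as a fixed and 0.0676 as a random block) and Ndn 0.50 (SE 0.20, limma adjusted p = 0.865) in the interaction. The remaining brightest probe sets lay between -0.01 for Grb10 and 0.37 for Dlk1. Without the 4 arrays of doubtful Aprt signal Peg3 read 0.80 (SE 0.30) and Ndn 0.48 (SE 0.25), each with a limma adjusted p of 1. Among the lists, 1 of 9 podocyte markers was called, Tcf21 at 1.07 (SE 0.20, limma adjusted p = 0.0296). Of 9 stromal markers 2 were called, Dcn at 1.04 and Lum at 1.11, each with a limma adjusted p of 0.0208. Of 3 blood markers 1 was called, also in the positive direction, and no gene of the other lists was called.

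The last question is how the members change with postnatal age. All 7 genes were called lower in controls at their brightest probe sets, where 16% of all probe sets were called lower. In Aprt KO mice 6 of 7 were called lower, against 15.4% of all probe sets, and Dlk1 was lower without a call (-0.48). No scan date or batch is given in the sources used here, so age and a batch that coincides with it cannot be told apart. Mest averaged 68.5 ± 23.1 in 1-month controls (n = 3) and 878.7 ± 284 in 7-day controls (n = 6; SD for each), a ratio of 0.0780. Its log2 fold change was -3.18 (SE 0.25, limma adjusted p = 4.23e-08). Cdkn1c averaged 682.2 ± 175 in 1-month and 6649 ± 1053 in 7-day controls (SD, n = 3 and 6), a log2 fold change of -3.25 (SE 0.14, limma adjusted p = 1.82e-11). No array of 1 month reached any array of 7 days for either gene in either genotype, a separation that 21.2% of all probe sets showed in controls and 23.6% in Aprt KO mice.

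Peg3 averaged 425 ± 84.1 in 1-month and 2262 ± 451 in 7-day controls (SD, n = 3 and 6), a log2 fold change of -2.33 (SE 0.16, limma adjusted p = 1.12e-08). Ndn averaged 133.3 ± 11.1 in 1-month and 801.3 ± 135 in 7-day controls (-2.34, SE 0.14, limma adjusted p = 1.50e-09). Grb10 averaged 50.6 ± 34.3 in 1-month and 356.6 ± 159 in 7-day controls (-2.24, SE 0.36, limma adjusted p = 0.000156). Plagl1, dim at the 41.6 percentile, averaged 54.2 ± 8.7 in 1-month and 178.3 ± 49.6 in 7-day controls (-1.29, SE 0.23, limma adjusted p = 0.000399). In these 4 genes the 2 ages did not overlap in controls.

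Dlk1 changed least with age in controls among the brightest probe sets. It read 289.1, 393.2 and 250.6 in 1-month controls, against 429.8 to 771.8 in 7-day controls (median 557.7), with a log2 fold change of -0.85 (SE 0.24, limma adjusted p = 0.0134). That call was lost in 6 of 40 alternatives, among them quantile normalization (-0.67, limma adjusted p = 0.0546), arrays scaled to a common median (-0.63, 0.062) and the fit without the 4 arrays of doubtful Aprt signal (-0.74, 0.102). It was also lost without the control of 1-month pair 3 (-0.67, 0.0932), without pair 1 (-0.81, 0.051) and without pair 3 (-0.72, 0.0581). In Aprt KO mice Dlk1 read 281, 548.8 and 310.6 at 1 month and 321 to 784.7 at 7 days (median 541.9). Those ranges overlapped, at -0.48 (SE 0.24, limma adjusted p = 0.176).

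In Aprt KO mice Mest fell by 2.92 on the log2 scale (SE 0.25, limma adjusted p = 1.30e-07), and Grb10 fell by 2.25 (SE 0.36). Cdkn1c fell by 1.94 (SE 0.14, limma adjusted p = 1.37e-08), with a mean of 968 ± 72 at 1 month and 3829 ± 524 at 7 days (SD, n = 3 and 6). Ndn fell by 1.84 (SE 0.14), Peg3 fell by 1.64 (SE 0.16) and Plagl1 fell by 1.17 (SE 0.23). The 2 age comparisons differ between the genotypes by the interaction above, in which only Cdkn1c passed.

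Probe sets of 1 gene mostly moved alike with age. In controls 11 of 13 member probe sets were called lower and 0 higher, where 24.5% of all probe sets were called, 16% lower and 8.49% higher. In Aprt KO mice 9 of 13 were called lower and 0 higher, where 24.1% of all were called, 15.4% lower and 8.73% higher. The median over the 13 probe sets was -2.24 in controls, against -0.07 over all probe sets, and -1.64 in Aprt KO mice, against -0.09 over all. Scaling each array to a common median moves the median of all probe sets by 0.14 in controls and 0.16 in Aprt KO mice. Of called probe sets 34.7% were higher in controls, 46.1% with quantile normalization and 59.8% with that scaling. In Aprt KO mice these shares were 36.2%, 47% and 61.9%. No called member value changed sign under either.

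The probe sets not called in controls were the third of Peg3 (-0.44, SE 0.16, limma adjusted p = 0.0528), which passed in 9 of 39 alternatives, and the dimmest of Grb10. That Grb10 probe set lay at the 10 percentile, with at most 64.8 on any array, and correlated with the other Grb10 probe sets at only 0.10 and 0.24 over 18 arrays. The second Plagl1 probe set, at the 35.9 percentile, read -0.84 in controls (SE 0.26, limma adjusted p = 0.0239) and lost its call in 9 of 38 alternatives. Over the 18 arrays of both ages the first and second Peg3 probe sets correlated at 0.96 and those of Ndn at 0.97. The bright Grb10 probe sets correlated at 0.95 and those of Plagl1 at 0.78. With each group's mean taken away these values were 0.51, 0.11, 0.77 and 0.68.

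Of the 33 other imprinted genes measured, 5 rose, 7 fell and 21 were not called in controls, and 4 rose, 6 fell and 23 were not called in Aprt KO mice. Igf2, the paternally expressed fetal growth factor that is H19's neighbour, fell by 2.80 in controls (SE 0.21, limma adjusted p = 2.29e-08) and fell by 2.31 in Aprt KO mice (SE 0.21). Sgce (-1.62, SE 0.10) and Nnat (-2.73, SE 0.33) also fell in controls. Slc22a18, next to Cdkn1c in its cluster, rose by 1.99 in controls (SE 0.19, limma adjusted p = 4.45e-07) and by 2.42 in Aprt KO mice (SE 0.19), and Phlda2 of the same cluster rose by 0.96 and 1.25. The named genes of that imprinted cluster, Cdkn1c included, thus differed in direction with age, and they do not stand for the whole cluster.

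The cell cycle list had 1 gene higher, 8 lower and 8 not called in controls, and 1 higher, 7 lower and 9 not called in Aprt KO mice. Cdkn1a fell by 1.61 in controls (SE 0.14) and the kinase Cdk4 fell by 1.04 (SE 0.10), while Cdkn1b read 0.02 (SE 0.21). Of 10 measured genes of the insulin-like growth factor axis, 0 were higher and 2 lower in controls, Igf2 and the RNA-binding Igf2bp1 (-1.36, SE 0.19), and Igf1r rose in Aprt KO mice (0.45, SE 0.16). Beside these falls 9 of 9 stromal markers fell in controls, with a summed signal of 4374 to 5417 at 1 month and 20983 to 28441 at 7 days. Podocyte markers fell in 5 of 9 cases, with sums of 1688 to 2227 at 1 month and 6412 to 7623 at 7 days. Of nephron progenitor markers 1 of 8 measured fell in controls (median -0.16), and of kidney epithelium markers 5 of 8 rose (median 0.59). Among all probe sets 16% were called lower and 8.49% higher in controls. The part of these cells in the members' falls was not tested.

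Adrenal markers differed between arrays of 1 group. Cyp11a1, the first enzyme of steroid synthesis, read 287 and 687.6 in the 1-month Aprt KO mice of pairs 3 and 2 and 98.8 in the control of pair 2, against 10.8 to 21.8 in the other 1-month arrays. At 7 days it read 465.5 in the Aprt KO mouse of pair 2 and 441.5 to 533.8 in the mice labelled control of pairs 1, 2 and 6, against 9.15 to 24.8 elsewhere. Of 10 adrenal markers 8 were measured, and 0 were called between the genotypes at either age by limma, with 1 at an unadjusted p under 0.05 at 1 month and 0 at 7 days. Dlk1 is known from the adrenal gland. After removal of the group means its level correlated with the mean log2 level of 7 adrenal markers at 0.59 over 18 arrays, each array scaled as a whole. Dlk1 was not alone in this. On the same measure the brightest and second Grb10 probe sets read 0.52 and 0.43, the second Peg3 probe set 0.39 and Mest -0.45.

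With that adrenal score as a covariate, the genotype difference of Dlk1 was -0.02 (SE 0.26) at 1 month, against 0.23 (SE 0.28) without it, and -0.01 (SE 0.18) at 7 days, against -0.14 (SE 0.19). Its age difference in Aprt KO mice was then -0.69 (SE 0.22, limma adjusted p = 0.0339) and passed. Cdkn1c correlated with the score at -0.33 after removal of the group means, and with the covariate its 7-day difference was -0.81 (SE 0.12, limma adjusted p = 0.000838) and its interaction 1.36 (SE 0.22, limma adjusted p = 0.0167).

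**Figure D4:**
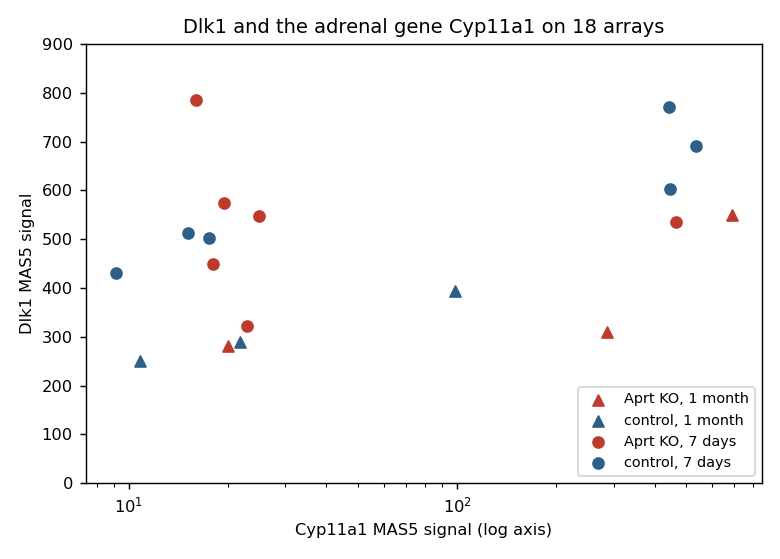
Dlk1 MAS5 signal against that of the adrenal gene Cyp11a1 (log axis) on the 18 arrays, with triangles for 1 month, circles for 7 days, red for Aprt KO and blue for control. The highest Dlk1 array, at 784.7, had a Cyp11a1 signal of 16, and at 1 month the highest Dlk1 array of each genotype had the highest Cyp11a1.

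Across the 18 arrays all 21 pairs of the 7 genes correlated positively, from 0.61 to 0.98 with a median of 0.85, over arrays of 2 ages in which every gene was lower at 1 month. After removal of the group means 13 of 21 pairs were positive, from -0.48 to 0.69 with a median of 0.08. Peg3 and Ndn had the highest value on both measures, 0.98 and 0.69, at their brightest probe sets. After that removal, though, the 2 probe sets of Ndn correlated with each other at only 0.11. The first Peg3 probe set then correlated with the second at 0.51 and with the third at -0.07. Cdkn1c and Plagl1 correlated at 0.93 over the arrays and at 0.62 after removal of the group means. Mest and Grb10 had the lowest value after that removal, at -0.48.

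Among 5743 genes searched, those whose pattern over 18 arrays was most like that of Cdkn1c were Sfrp2 (r = 0.98), Maged2 (0.98), Pkdcc (0.98), Rflnb (0.98) and Cyth3 (0.98). After removal of the group means they were Pkdcc (0.89), Fdft1, Nup107 and Smad6 (0.85 each) and Scmh1 (0.84). For Peg3 the nearest were Ndn (0.98) and Col5a2 (0.98), for Ndn Maged2 and Igf2 (0.99 each), and for Mest Thbs2 and Hdc (0.98 each). Plagl1 was nearest to Armcx2 and Tmpo (0.95 each), Grb10 to Ccnb2 (0.96) and Usp22 (0.95), and Dlk1 to Adgrl1 (0.85) and Cacnb2 (0.84).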

How the data were processed

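For each of 12488 probe sets the authors deposited 1 linear intensity per array, and the submitters' processing notes name GCOS and MAS5. Neither version nor target of the scaling is given in the sources used here. Each array's 2% trimmed mean lay between 500.2 and 500.4 and its median between 160.1 and 216.4, the pattern of a global scaling. Depth does not apply to arrays, whose number limits the precision. Deposited signals entered as log2(signal + 29), the pseudocount 29 being the 20th percentile of the table, rounded. Of the probe sets 10833 had a single symbol in the platform annotation, 396 several and 1193 none, and 66 control probe sets were left out.

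Groups, ages, sexes and litters came from the labels. A limma 3.58.1 model (R 4.3.3, lmFit and trended eBayes) was fitted to all 18 arrays with a term per group and a sex term per age, centred within each age, leaving 12 residual degrees of freedom. Comparisons were Aprt KO against control at each age, their interaction, and 1 month against 7 days in each genotype. Tests were two-sided, adjusted over 12422 probe sets. The fit was tested on simulated data. The labels pair littermates, and within the 9 pairs the correlation of deviations from group means ranged from 0.158 to 0.552. The 41 alternatives varied the pseudocount, normalization, filter, sex term, eBayes options, litter block, arrays used and an adrenal covariate. Every member probe set was named whatever its values. A gene of a list is represented by its brightest probe set. Genes most like a member were those of highest Pearson correlation, 5 for Cdkn1c and 2 for each other member. Members and lists were chosen with earlier results of these data known. Of the called genes of a list at most 4 were named per comparison, by smallest p, and for some lists fewer or none. Outside this rule, and after their values were seen, are Nnat and Phlda2, at 7 days Slc22a18 and Cdkn1a, Cdkn1b, and the markers Wt1, Synpo, Ptpro and Cyp11a1. Figures were drawn with matplotlib 3.10.9.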

Additional observations from a re-analysis of the deposited data

Results flagged for a closer look

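The 7-day mouse labelled Aprt KO of pair 4 read 4802 for Cdkn1c, and the next array of its group read 3831. The gap was 0.636 of the group's range, above Dixon's limit for 6 samples. Its control littermate was also the highest of its group, and this array is among the 4 whose Aprt signal lay on the other genotype's side. Of 26 groups of 6 arrays examined 1 stood out in this way, and chance alone marks about 1 in 20.

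The genotype difference of Cdkn1c differed between the ages by 1.30 on the log2 scale in limma's interaction test, with a difference of 0.51 at 1 month and -0.79 at 7 days.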

How the results depend on the processing

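Of 2599 member values under the alternatives, 2503 kept their direction and their side of the threshold, 18 lost a call, 16 gained one, 62 changed sign without a call before or after, and 0 called values changed sign. The 7-day fall of Cdkn1c kept its call in all 41 alternatives, from -0.86 to -0.71 with limma adjusted p from 5.53e-06 to 0.011. Its interaction lost the call in 3 of 41, with quantile normalization and without 1-month pair 2 or 3. With the litter pair as a fixed replicate block the calls over the array were 522 at 7 days, 58 at 1 month and 89 in the interaction, and with it as a random replicate block 491, 92 and 88, against 221, 8 and 34. Members called were 2 at 1 month under either block and 2 in the interaction under the fixed block, against 0 and 1, and 0 in the interaction with quantile normalization; the block changed no other member call in these comparisons. A fixed block could not be fitted to the age comparisons, since a pair lies within 1 age. At 1 month the calls over the array were 23 with a pseudocount of 1, 0 with one at the 40th percentile, 5 with arrays scaled to a common median, 15 with probe sets at or above the 40th percentile, 18 with the brightest probe set per gene at that level and 5 with the adrenal covariate. In the interaction they were 14 with the adrenal covariate. Without the 4 arrays of doubtful Aprt signal there were 122 at 7 days and 9 in the interaction. With the brightest probe set per gene at or above the 40th percentile 7 member probe sets were called between the ages in controls, of 7 tested. Leaving out 1 array or 1 litter pair gave 145 to 258 calls at 7 days, 0 to 17 at 1 month, 13 to 43 in the interaction, 2355 to 3105 for age in controls and 2258 to 3059 in Aprt KO mice; members called were 1 to 1, 0 to 0, 0 to 1, 9 to 12 and 9 to 10. The causes of these changes were not tested. Groups of 3 arrays and dim signals near the pseudocount limit the 1-month values of Mest, Plagl1 and Grb10.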
